A study of Mus musculus with 18 samples.

Results

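The genes described here are 44 genes of cell adhesion, 23 integrin subunits and 21 proteins that couple integrins to the actin cytoskeleton, read from the counts table by gene symbol out of 21254 genes. RNA was sequenced in bulk from 3 macrophage populations sorted from mouse lung 24 h after nebulized LPS of Pseudomonas aeruginosa, with 3 libraries in each of 6 groups of population and genotype (18 libraries). The moMs (monocyte-derived macrophages) were gated as CD45+CD11b+MHC-II-Ly6C+, the tnsIMs (transitional interstitial macrophages, trIM in the labels) as CD45+CD11b+MHC-II+Ly6C+ and the matIMs (mature interstitial macrophages) as CD45+CD11b+MHC-II+Ly6C-. WT mice carried Cx3cr1-Cre without a floxed Ezr allele, and Ezr-KOm mice combined floxed Ezr with the same Cre, which deletes Ezr in cells that express Cx3cr1, including monocytes and macrophages and not the lung as a whole. All 6 groups therefore shared the Cre and the LPS, and no untreated group was analysed here. CD11b, the protein of Itgam, and CD11c, the protein of Itgax, were part of the sort. All 3 populations were gated as CD11b+ within the CD11c- cells, so the levels of those 2 transcripts describe cells already chosen by their proteins.

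Integrins are pairs of 1 alpha and 1 beta subunit that bind matrix proteins or counter-receptors on other cells. Leukocytes carry the beta2 integrins (Itgb2 with Itgal, Itgam, Itgax or Itgad), which serve arrest on the vessel wall and phagocytosis, and the alpha4 integrins (Itga4 with Itgb1 or Itgb7). Talins and kindlins switch integrins on by binding the beta tail, and vinculin, alpha-actinins, zyxin and VASP tie them to actin. FAK (Ptk2), its relative Pyk2 (Ptk2b) and Src signal from these sites. Ezrin, the product of Ezr, links the plasma membrane to the actin cortex.

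Library totals ranged from 16512783 to 48460995 counts, and all but 1 were at or under 27709052. Levels are CPM, counts scaled to a common library size with TMM factors, and fold changes, their standard errors and adjusted p-values come from edgeR's quasi-likelihood test with Benjamini-Hochberg adjustment over 15811 tested genes. A gene is called at an adjusted p under 0.05. Ezr itself stood at 531 ± 53.6, 586 ± 83.8 and 661 ± 69.96 CPM in the WT populations, in the order moMs, tnsIMs, matIMs (mean ± SD, n = 3), and at 231 ± 63.7, 191 ± 57.4 and 135 ± 37.4 CPM in the Ezr-KOm populations. Its log2 fold change was -1.20 ± 0.24 (SE) in moMs (adjusted p = 0.0549, not called), -1.62 ± 0.24 in tnsIMs (adjusted p = 0.00365) and -2.29 ± 0.25 in matIMs (adjusted p = 7.73e-05), and the values of the 2 genotypes did not overlap in any population. Macrophage markers were present throughout, with the sum of 14 markers at 40586 to 48695 CPM in WT moMs, 45191 to 86925 in tnsIMs and 48465 to 64816 in matIMs.

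The upstream sequences of 4 leukocyte integrin genes are shown because their transcripts moved in different directions between the populations, with Itgam falling, Itgax rising, and Itga4 and Itgb7 lowest in tnsIMs. Each is the 250 bases before the RefSeq start site, 5′ to 3′ on the gene's strand, with GRCm38.p6 coordinates. Capitals mark GAGGAA, a PU.1-type motif, and TGACTCA, an AP-1-type motif, on either strand.
Itgam (chr7:128062390-128062639, + strand): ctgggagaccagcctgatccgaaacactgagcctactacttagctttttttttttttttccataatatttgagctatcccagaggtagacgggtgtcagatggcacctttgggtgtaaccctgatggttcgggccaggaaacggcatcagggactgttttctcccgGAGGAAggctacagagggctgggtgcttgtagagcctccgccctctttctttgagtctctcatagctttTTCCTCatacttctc
Itgax (chr7:128129300-128129549, + strand): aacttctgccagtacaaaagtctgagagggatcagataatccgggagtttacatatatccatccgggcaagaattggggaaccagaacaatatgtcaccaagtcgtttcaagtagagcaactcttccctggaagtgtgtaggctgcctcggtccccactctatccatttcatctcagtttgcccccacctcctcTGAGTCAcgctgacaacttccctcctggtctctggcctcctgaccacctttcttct
Itga4 (chr2:79255176-79255425, + strand): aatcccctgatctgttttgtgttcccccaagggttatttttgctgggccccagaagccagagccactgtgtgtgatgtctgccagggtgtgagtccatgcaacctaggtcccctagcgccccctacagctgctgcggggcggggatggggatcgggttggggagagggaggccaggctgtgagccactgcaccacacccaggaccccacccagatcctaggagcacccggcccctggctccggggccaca
Itgb7 (chr15:102231936-102232185, - strand): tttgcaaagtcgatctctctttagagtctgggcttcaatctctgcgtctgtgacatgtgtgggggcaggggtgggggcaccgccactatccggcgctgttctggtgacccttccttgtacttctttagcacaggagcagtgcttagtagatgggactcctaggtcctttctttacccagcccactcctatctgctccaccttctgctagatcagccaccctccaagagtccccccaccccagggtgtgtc

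The Itgam window held GAGGAA 2 times, and the Itgax window held TGACTCA 1 time. Neither motif was found in the Itga4 and Itgb7 windows. GAGGAA occurred in 23.3% of all 32851 windows of this length and in 11 of the 39 windows of 32 members that the RefSeq table holds (28.2%). TGACTCA occurred in 4.46% of all windows and in 2 member windows (5.13%), those of Itgax and Zyx. The motifs do not overlap each other in letters, and a match is a description of the window only.

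Of the 44 members, 43 passed the filter on low counts, and the 1 that did not was Itgad, whose highest count in any library was 16. Between matIMs and moMs of WT mice, 11 members were called higher and 16 lower, against 13.4% of all tested genes called higher and 11.4% lower. Together 62.8% of the tested members were called. In the first step, from moMs to tnsIMs, 14 were higher and 4 lower (background 13% and 8.61%). A replicate block gave 17 higher and 10 lower in that step. In the second, from tnsIMs to matIMs, 5 were higher and 15 lower (background 8.32% and 10.2%), and 12 of those 15 were integrins. The median log2 fold change of the members was 0.28 in the first step and -0.37 in the second, with medians over all tested genes of 0.01 and 0.04.

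The Ezr-KOm libraries gave 8 members higher and 14 lower in matIMs than in moMs (background 12.5% and 10.7%). They gave 13 higher and 3 lower in tnsIMs than in moMs (background 9.23% and 5.04%), and 5 higher and 16 lower in matIMs than in tnsIMs (background 8.37% and 9.85%). Of the 27 members called between matIMs and moMs in WT mice, 20 were also called in Ezr-KOm mice (74.1% of the WT calls and 90.9% of the 22 Ezr-KOm calls), and 0 of them had opposite signs. For each of the single steps, 16 and 19 members were called in both genotypes, and 0 had opposite signs. The share of all tested genes called in both genotypes was not computed.

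**Figure D1:**
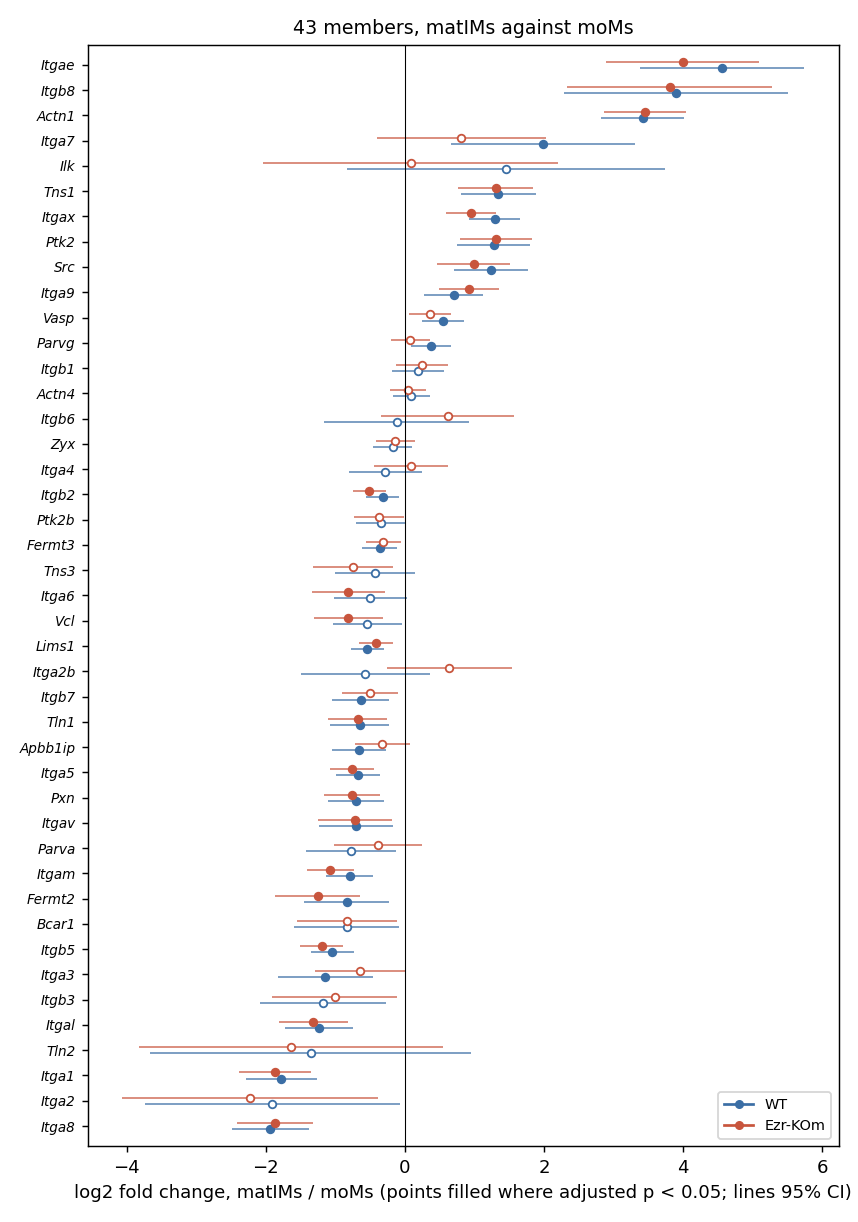
Log2 fold change of matIMs over moMs (x axis) for the 43 tested members (y axis, ordered by the WT value), with WT in blue and Ezr-KOm in red, lines for 95% confidence intervals and filled points for adjusted p under 0.05. Itgae, Itgb8 and Actn1 lie farthest to the right in both genotypes, and Itga8 and Itga1 are called at the low end in both.

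Transcripts of the beta2 integrins differed between the sorted populations. Itgal and Itgam were lower in matIMs than in moMs, Itgax was higher and Itgb2 slightly lower. Itgal, the alpha subunit of LFA-1, had 514, 701 and 677 CPM in the 3 WT moM libraries, 329, 423 and 513 in tnsIMs and 214, 251 and 340.0 in matIMs. In Ezr-KOm mice the values were 591, 554 and 714, then 317, 352 and 614, then 231, 262 and 256. Every matIM library lay below every moM library in both genotypes, and the fall between matIMs and moMs was 2.35-fold in WT (log2 fold change -1.23 ± 0.23, adjusted p = 0.000613) and 2.49-fold in Ezr-KOm (adjusted p = 0.000361). Itgam, the alpha subunit of Mac-1, had 295, 274 and 266 CPM in WT moMs, 255, 202 and 199.9 in tnsIMs and 162, 178 and 141 in matIMs. The Ezr-KOm libraries had 327, 373 and 307, then 253, 311 and 252, then 158, 195 and 127. The 3 matIM libraries were the lowest in each genotype, with log2 fold changes against moMs of -0.79 ± 0.16 in WT (adjusted p = 0.00104) and -1.07 ± 0.16 in Ezr-KOm (adjusted p = 6.35e-05). The counts of Itgam carry a limit, since 67.4% of its exon bases are shared on the same strand with the predicted gene Gm49368 in Gencode M39, which held only 3 to 17 counts per library against 3024 to 15600 for Itgam.

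Itgax, the alpha subunit of CD11c/CD18, went the other way. Its values were 256, 291 and 259.7 CPM in WT moMs, 671, 457 and 537 in tnsIMs and 714, 613 and 644 in matIMs. In Ezr-KOm mice they were 339, 275 and 291, then 611, 494 and 634, then 727, 551 and 474. No tnsIM or matIM library overlapped the moM range of its genotype, although the cells were sorted from the CD11c- fraction. The rise from moMs was 2.06-fold to tnsIMs and 2.44-fold to matIMs in WT (adjusted p = 0.000243 and 1.68e-05), and 1.92-fold and 1.93-fold in Ezr-KOm (adjusted p = 0.000969 and 0.000378). Itgb2, the shared beta subunit, had 1323, 1393 and 1401 CPM in WT moMs, 1408, 1366 and 1502 in tnsIMs and 1100.3, 1004 and 1203 in matIMs, with 1394, 1295 and 1382, then 1365, 1249.9 and 1402, then 1009.9, 918 and 922 in Ezr-KOm mice. The moM and tnsIM ranges overlapped and the matIM values lay below both. Its log2 fold change of matIMs over moMs was -0.32 ± 0.11 in WT (adjusted p = 0.0475) and -0.51 ± 0.11 in Ezr-KOm (adjusted p = 0.00225), and the WT call was lost in 12 of the alternative analyses. Itgad, the fourth beta2 partner, had a total of 100 counts over the 18 libraries.

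**Figure D2:**
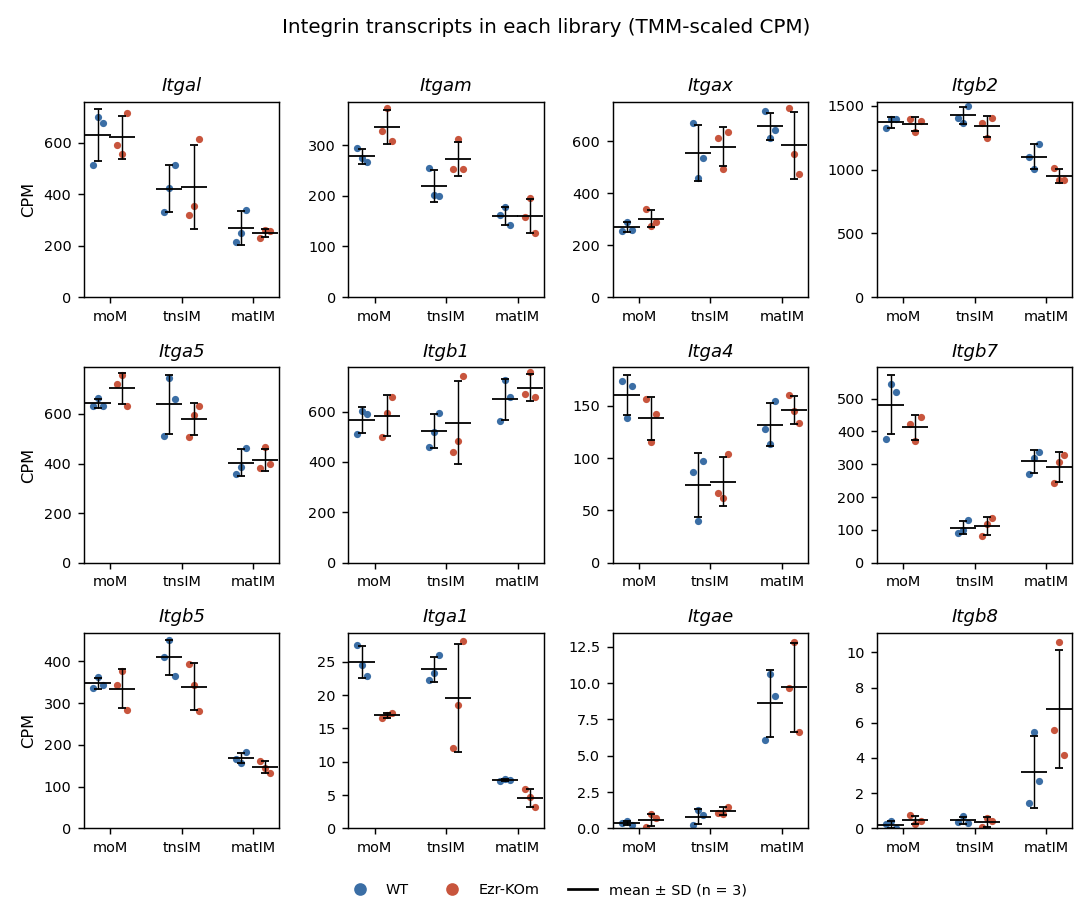
CPM (y axis) of 12 integrin genes by population (x axis), with a point for each WT (blue) and Ezr-KOm (red) library and black marks for mean ± SD (n = 3). Itgal, Itgam and Itgb5 are lowest in matIMs, Itgax, Itgae and Itgb8 are higher there than in moMs, and Itga4 and Itgb7 dip in tnsIMs.

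Levels were also divided by kilobases of exon, which brings those of different genes closer to a common scale. On that scale Itgb2 was the most abundant integrin transcript in all 3 WT populations. It stood at 423 ± 13.2, 439 ± 21.5 and 339.8 ± 30.7 CPM per kb in moMs, tnsIMs and matIMs (mean ± SD, n = 3). The second rank changed with the population. It was held by Itgb7 in moMs (166 ± 30.9 CPM per kb), by Itga5 in tnsIMs (119.9 ± 22.2) and by Itgax in matIMs (135 ± 10.7). In tnsIMs, Itga5 and Itgax (114 ± 22.3 CPM per kb) did not differ beyond their spread, nor did Itgb1 (109 ± 13.6) and Itgb7 (107 ± 12.1) in matIMs. The per-kb sum of the 4 beta2 alpha partners was 206 ± 15.9 in WT moMs, 221 ± 21.0 in tnsIMs and 208 ± 7.20 in matIMs. These ranges overlapped while the share of each partner moved. The lengths include exon bases shared with other genes, which are 67.4% of those of Itgam. Reads there can be dropped in counting, so the rank of Itgam, the second rank in moMs and these sums are uncertain.

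The alpha4beta7 pair shared a dip in tnsIMs. Itgb7, the beta subunit of the gut-homing integrin and of the Itgae pair, had 378, 543 and 521 CPM in WT moMs, 92.1, 101 and 129 in tnsIMs and 270.2, 319.5 and 338 in matIMs. In Ezr-KOm mice the values were 422, 372 and 444, then 82.2, 119 and 137, then 242, 306 and 328. The 3 ranges did not overlap in either genotype. The fall from moMs to tnsIMs was 4.48-fold in WT (log2 fold change -2.16 ± 0.20, adjusted p = 1.08e-06) and the rise from tnsIMs to matIMs 2.88-fold (adjusted p = 1.63e-05). Between matIMs and moMs it was lower in WT (log2 fold change -0.64 ± 0.19, adjusted p = 0.0206). The Ezr-KOm value for that comparison was -0.50 ± 0.19 and was not called (adjusted p = 0.0706). Itga4, the alpha subunit of VLA-4, had 174, 138 and 169 CPM in WT moMs, 86.6, 39.7 and 97.5 in tnsIMs and 128, 114 and 154 in matIMs. All tnsIM libraries lay below the others, with log2 fold changes of -1.10 ± 0.26 from moMs to tnsIMs (adjusted p = 0.00466) and 0.82 ± 0.26 from tnsIMs to matIMs (adjusted p = 0.0293). Ezr-KOm mice gave -0.83 ± 0.26 and 0.91 ± 0.26 (adjusted p = 0.0348 and 0.0158). In both genotypes, Itga4 and Itgb7 were the 2 members called lower in tnsIMs than in both other populations. The Itga4 calls were less stable. Of 27 alternative analyses, 6 lost the Ezr-KOm fall to tnsIMs, 3 the Ezr-KOm rise to matIMs and 4 the WT rise to matIMs, which was 0.49 on the log2 scale without WT tnsIM replicate 2 (adjusted p = 0.126). About 20.8% of the exon bases of Itga4 overlap Cerkl on the opposite strand.

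Itgb1, the common partner of the matrix-binding alpha subunits, was abundant and was called in 0 of the population comparisons. It had 509.8, 601 and 589 CPM in WT moMs, 458, 518 and 594 in tnsIMs and 563, 725 and 659 in matIMs, and the Ezr-KOm values were 501, 593 and 659, then 440.9, 484 and 743, then 669, 757 and 659.7. The ranges of the 3 WT populations overlapped, and the 95% interval of the log2 fold change of matIMs over moMs in WT was -0.18 to 0.57. Its alpha partners did change. Itga5, the fibronectin receptor subunit, had 632, 663 and 632 CPM in WT moMs, 510.4, 743 and 662 in tnsIMs and 358, 387 and 463 in matIMs. The matIM values were the lowest, 1.59-fold below moMs (log2 fold change -0.67 ± 0.15, adjusted p = 0.00252), with -0.76 in Ezr-KOm (adjusted p = 0.000962).

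Itga1, a collagen receptor subunit, fell at the second step. WT libraries had 27.5, 24.5 and 22.8 CPM in moMs, 22.3, 23.3 and 25.98 in tnsIMs and 7.09, 7.48 and 7.23 in matIMs. Ezr-KOm libraries had 16.6, 17.05 and 17.3, then 12.01, 18.6 and 28.1, then 5.99, 4.64 and 3.27. The moM and tnsIM ranges overlapped, and all matIM libraries lay below them. The fall between matIMs and moMs was 3.43-fold in WT (log2 fold change -1.78 ± 0.24, adjusted p = 2.33e-05) and the log2 fold change was -1.87 in Ezr-KOm (adjusted p = 1.65e-05). Itga8, which pairs with Itgb1 to bind RGD ligands, had 7.63, 6.71 and 8.23 CPM in WT moMs, 3.67, 5.200 and 5.68 in tnsIMs and 2.04, 1.84 and 2.01 in matIMs, a fall of 3.83-fold between the ends (adjusted p = 2.14e-05). Itgav, which pairs with several beta subunits to bind vitronectin or latent TGF-beta, had 77.4, 80.2 and 98.1 CPM in WT moMs and 44.2, 49.4 and 63.2 in matIMs (log2 fold change -0.71 ± 0.25, adjusted p = 0.0485). Its tnsIM libraries, at 66.4, 37.9 and 94.2 CPM, overlapped both ranges, and the WT call was lost in 6 of 27 alternative analyses. Its partner Itgb5 had 335, 362 and 342 CPM in WT moMs, 411, 450.2 and 366 in tnsIMs and 167, 156 and 182 in matIMs, so that every matIM library was lower than every other library. The log2 fold change of matIMs over moMs was -1.04 ± 0.15 in WT (adjusted p = 3.02e-05) and -1.19 ± 0.15 in Ezr-KOm (adjusted p = 6.78e-06).

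The subunits Itgae and Itgb8 were low in moMs and much higher in matIMs. Itgae, the alphaE subunit (CD103) that pairs with Itgb7 to bind E-cadherin, had 0.342, 0.497 and 0.236 CPM in WT moMs, 0.25, 1.27 and 0.901 in tnsIMs and 6.07, 10.6 and 9.13 in matIMs. In Ezr-KOm mice it had 0.13, 0.964 and 0.705, then 1.04, 0.998 and 1.48, then 9.68, 12.8 and 6.67. The fold change between matIMs and moMs was 23.7 in WT (log2 fold change 4.57 ± 0.56, adjusted p = 6.78e-06) and 15.9 in Ezr-KOm (adjusted p = 1.56e-05), and no matIM library overlapped any other population. Itgb8, which pairs with Itgav to bind latent TGF-beta, had 0.228, 0.414 and 0 CPM in WT moMs, 0.375, 0.698 and 0.313 in tnsIMs and 1.46, 5.47 and 2.68 in matIMs. Its Ezr-KOm values were 0.739, 0.27 and 0.441, then 0.0831, 0.618 and 0.424, then 5.59, 10.6 and 4.19. The matIM libraries of both genotypes were again the highest, with fold changes against moMs of 14.9 (log2 fold change 3.90 ± 0.77, adjusted p = 0.000883) and 14.01 (adjusted p = 0.000488). These folds rest on few counts in moMs, where 1 WT library had 0 counts for Itgb8.

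Markers of dendritic cells moved with these genes. The sum of 9 dendritic markers was 83.5 to 125 CPM in WT moMs, 314 to 571 in tnsIMs and 5745 to 7879.7 in matIMs, and 7251 to 7595 CPM in Ezr-KOm matIMs. Of the 9, 8 were called higher in matIMs than in moMs of WT mice, and all 9 had counts in every group. The sum of 5 B cell markers rose as well, from 8.77 to 13.2 CPM in WT moMs to 147 to 219.8 in matIMs. Of 8 alveolar macrophage markers, 7 were called higher and 1 lower in matIMs than in moMs of WT mice. Their sum went the other way, with 5242 to 6541 CPM in WT moMs and 474 to 615 in matIMs. In bulk samples, fewer cells of a type and less RNA per cell cannot be told apart, and the part of these cells in the levels of Itgae, Itgb8, Itgax and Actn1 was not tested.

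Among the adhesion proteins, Actn1 stood out. It encodes alpha-actinin-1, which crosslinks actin at adhesion sites. WT moMs had 9.34, 4.52 and 6.18 CPM, tnsIMs 18.1, 15.98 and 17.3 and matIMs 68.02, 77.1 and 67.9. Ezr-KOm libraries had 7.44, 8.72 and 4.05, then 13.96, 25.8 and 17.1, then 71.1, 81.4 and 69.6. The 3 ranges did not overlap in either genotype, and Actn1 was the 1 member called higher at both steps, in both genotypes. The rise from moMs to matIMs was 10.7-fold in WT (log2 fold change 3.42 ± 0.28, adjusted p = 5.56e-08) and 10.96-fold in Ezr-KOm (adjusted p = 4.28e-08). Its paralog Actn4 was at 312 ± 38.04, 377 ± 24.5 and 333 ± 25.1 CPM in the WT populations and was called in 0 comparisons, with a 95% interval of -0.17 to 0.36 for the log2 fold change of matIMs over moMs.

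The signalling kinases FAK and Src, and tensin 1, rose at the first step and were not called at the second. Ptk2, which encodes FAK, had 4.21, 5.43 and 4.88 CPM in WT moMs, 9.26, 14.5 and 19.3 in tnsIMs and 10.7, 12.9 and 11.7 in matIMs, with 5.74, 4.13 and 5.77, then 9.599, 10.8 and 15.6, then 14.4, 12.04 and 12.3 in Ezr-KOm mice. The moM libraries were the lowest in both genotypes. The log2 fold change from moMs was 1.56 ± 0.25 in tnsIMs and 1.28 ± 0.25 in matIMs of WT mice (adjusted p = 0.000204 and 0.000794), and 1.20 ± 0.25 and 1.31 ± 0.25 in Ezr-KOm mice (adjusted p = 0.0025 and 0.000608). Ptk2b, which encodes Pyk2, was at 187 ± 16.02, 152 ± 32.5 and 147 ± 25.8 CPM in the WT populations and was not called between them. Src, the kinase that acts with FAK, had 5.58, 4.48 and 5.47 CPM in WT moMs, 13.98, 6.47 and 14.9 in tnsIMs and 12.5, 10.8 and 13.5 in matIMs, and the matIM values were 2.36-fold above moMs (adjusted p = 0.00113; Ezr-KOm 1.99-fold, adjusted p = 0.00638). Tns1, which encodes tensin 1 and links beta tails to actin, had 18.6, 18.9 and 20.2 CPM in WT moMs, 71.9, 41.8 and 83.9 in tnsIMs and 40.9, 52.9 and 52.5 in matIMs, a 2.54-fold rise between the ends (adjusted p = 0.000697). In Ezr-KOm mice that log2 fold change was 1.30 (adjusted p = 0.000892).

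**Figure D3:**
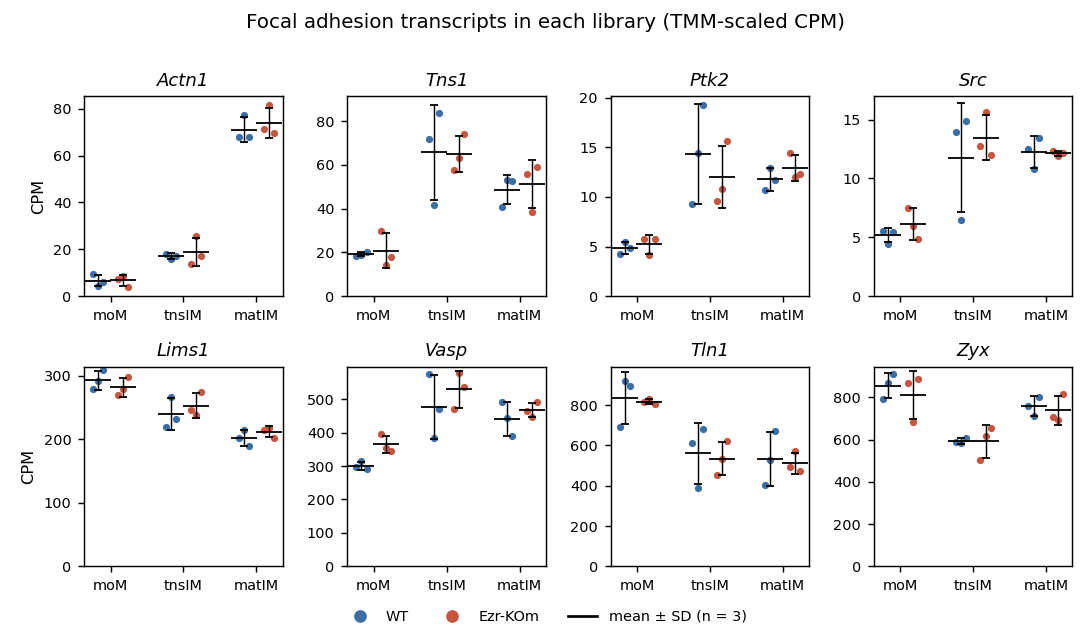
CPM (y axis) of 8 adhesion genes by population (x axis), with a point for each WT (blue) and Ezr-KOm (red) library and black marks for mean ± SD (n = 3). Actn1 climbs at both steps, Ptk2 and Tns1 are lowest in moMs, and Lims1 is lowest in WT matIMs.

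Of the 21 adhesion members, 6 were called higher and 6 lower in matIMs than in moMs of WT mice (background 13.4% and 11.4%). In Ezr-KOm mice 4 were higher and 5 lower (background 12.5% and 10.7%). Lims1, which encodes the adaptor PINCH1, had 278, 291 and 308 CPM in WT moMs, 218, 267 and 232 in tnsIMs and 201, 214 and 189 in matIMs, 1.45-fold lower at the end (log2 fold change -0.54 ± 0.12, adjusted p = 0.00182; Ezr-KOm -0.42, adjusted p = 0.0125). Tln1, the talin of leukocytes, had log2 fold changes between matIMs and moMs of -0.65 ± 0.20 in WT and -0.68 ± 0.20 in Ezr-KOm (adjusted p = 0.0244 and 0.02). Pxn, which encodes the scaffold paxillin, had -0.70 ± 0.19 and -0.76 ± 0.19 (adjusted p = 0.00965 and 0.00597). Fermt3, the kindlin of blood cells, and Apbb1ip, which encodes the talin recruiter RIAM, were called in WT mice only, at -0.36 ± 0.12 and -0.66 ± 0.19 (adjusted p = 0.0357 and 0.0142), and the difference between genotypes was tested and not called. Of 27 alternative analyses, 9 lost the WT call of Fermt3, 2 that of Apbb1ip and 5 that of Tln1. Among the higher members, Vasp, which encodes an actin polymerization factor, had 296, 314 and 292 CPM in WT moMs, 575, 385 and 471 in tnsIMs and 491, 445 and 389 in matIMs, and no moM library reached the other ranges (matIMs against moMs, log2 fold change 0.55 ± 0.14, adjusted p = 0.00734). Parvg, the parvin of blood cells, was at 91.4 ± 7.68 CPM in WT moMs and 119 ± 11.7 in matIMs (adjusted p = 0.0476, lost in 18 of the alternative analyses). Vasp and Parvg were not called between matIMs and moMs in Ezr-KOm mice, and the difference between genotypes was not called. Zyx, which encodes zyxin, was lower in tnsIMs than in moMs (log2 fold change -0.53 ± 0.14 in WT, adjusted p = 0.00845) and not called between matIMs and moMs. Ilk, the kinase-like partner of Lims1 and the parvins, had 1 to 16 counts per library. Its exons overlap those of Taf10 and Rrp8 on the opposite strand over 90.3% of their bases in Gencode M39, and the strand used in counting is not given in the sources used here, so its level is not interpreted. Overlap with exons of other genes was smaller for the other members named here, at 30.5% for Vasp, 30.2% for Fermt3, 22.8% for Ptk2b, 20.9% for Zyx, 17.3% for Actn1, 14.1% for Itga1 and 10.3% for Itga2b.

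A group of members was highest in tnsIMs and low in the populations before and after. In both genotypes 7 members were called higher in tnsIMs than in moMs and lower in matIMs than in tnsIMs, and they were Itga3, Itga7, Itga9, Itgb6, Fermt2, Parva and Bcar1. The share of all tested genes with this course was not computed. The same holds for the dip of Itga4 and Itgb7 and for the rise of Actn1 at both steps. Itga7, a laminin receptor subunit, had 0.512, 0.456 and 0.236 CPM in WT moMs, 10.7, 14.2 and 17.2 in tnsIMs and 1.02, 1.495 and 2.16 in matIMs. The rise to tnsIMs was 35.4-fold and the fall to matIMs 8.94-fold (adjusted p = 1.53e-05 and 0.000272). Itga3, also a laminin receptor subunit, had 4.27, 4.43 and 2.24, 14.98, 10.6 and 16.2 and 1.46, 2.01 and 1.45 CPM in the same order (tnsIMs against moMs 3.84-fold, adjusted p = 0.000196). Both genes were also called between matIMs and moMs in WT, Itga3 lower and Itga7 higher (log2 fold change -1.15 ± 0.32 and 1.98 ± 0.63, adjusted p = 0.0136 and 0.0271). Neither was called there in Ezr-KOm mice, and the difference between genotypes was not called. The WT call was lost in 1 of 27 alternative analyses for Itga3 and in 5 of 26 for Itga7. Itga9, which binds tenascin C and other ligands, had 13.3, 10.3 and 11.3, 39.7, 26.6 and 40.2 and 14.01, 22.7 and 19.8 CPM in WT, and its matIM libraries lay above its moM libraries (log2 fold change 0.70 ± 0.20, adjusted p = 0.0161). Fermt2, the kindlin of non-blood cells, had 4.55, 6.71 and 3.54 CPM in WT moMs, 18.6, 34.4 and 26.3 in tnsIMs and 2.57, 2.82 and 2.91 in matIMs. Its log2 fold changes were 2.42 ± 0.28 and then -3.25 ± 0.30 (adjusted p = 1.20e-05 and 4.79e-07). Itgb6, the epithelial alphavbeta6 subunit, Parva, the widely expressed parvin, and the scaffold Bcar1 had log2 fold changes at the first step of 3.34 ± 0.46, 1.97 ± 0.30 and 2.58 ± 0.34 and at the second of -3.46 ± 0.46, -2.74 ± 0.31 and -3.42 ± 0.36.

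Markers of structural cells followed the same course. The sum of 8 epithelial markers was 37.7 to 69.7 CPM in WT moMs, 2359 to 3983 in tnsIMs and 275 to 367 in matIMs, and in Ezr-KOm mice 19.2 to 125, then 1484 to 3112, then 164 to 326. The sum of 8 endothelial markers was 109.8 to 142, 334 to 561 and 80.9 to 110.3 CPM in WT, and that of 7 fibroblast markers 26.3 to 42.98, 101 to 119 and 16.2 to 32.5. In WT tnsIMs against moMs, 7 of 8 epithelial, 8 of 8 endothelial, 5 of 7 fibroblast and 3 of 6 tested smooth muscle and pericyte markers were called higher and 0 lower. No marker of these lists was at 0 in all libraries of the WT tnsIMs. The CD45+CD11b+ gate is meant to leave such cells out. Ptk2, Src and Tns1 rose at the same step as these markers. The part of such cells or of their RNA in the tnsIM levels of these 3 genes and of the 7 members above was not tested.

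**Figure D4:**
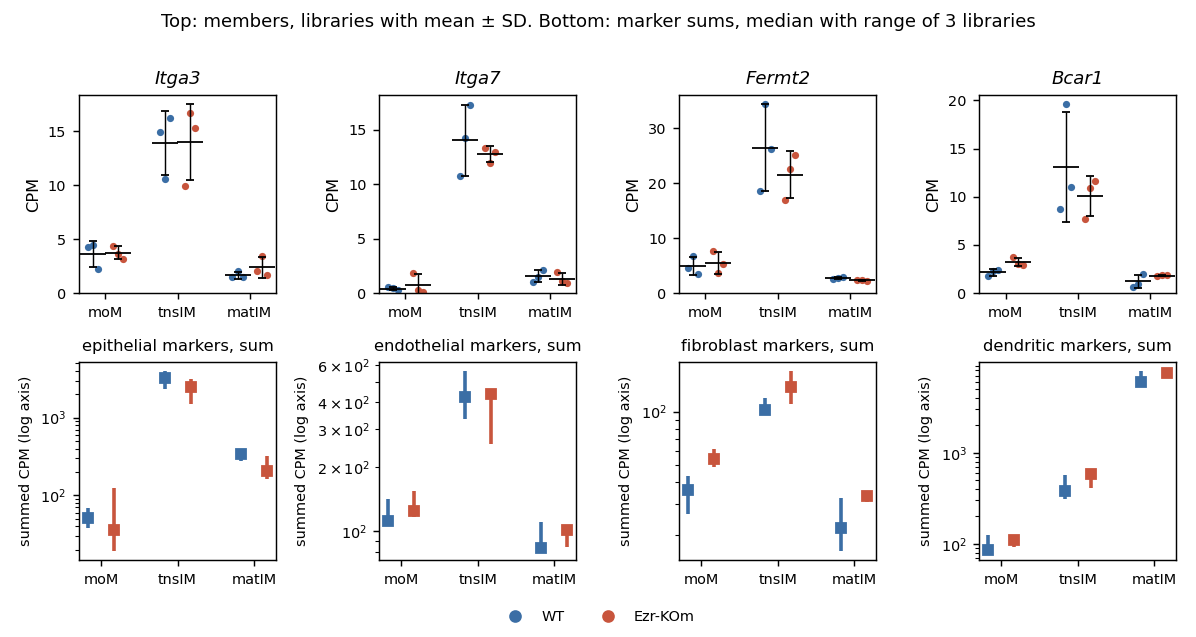
Top row, CPM (y axis, linear) of 4 members by population (x axis), with points for libraries and black marks for mean ± SD (n = 3). Bottom row, summed CPM (y axis, log scale) of 4 marker lists, squares for the median and bars for the range of the 3 libraries of a group. WT is blue and Ezr-KOm red, and the members and the epithelial, endothelial and fibroblast sums peak in tnsIMs, while the dendritic sum peaks in matIMs.

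Genes outside the 44 were read from 5 lists of the same pathway. Of 24 tested integrin ligands, 15 were called higher and 1 lower in tnsIMs than in moMs of WT mice, and 0 higher and 17 lower in matIMs than in tnsIMs (background 13% and 8.61%, then 8.32% and 10.2%). The structural cell markers took the same course, with 8 of 8 endothelial markers higher and then lower, and their part in the ligand counts was not tested. The ligands named by the rule were Thbs1, which encodes thrombospondin 1 (log2 fold change of matIMs over moMs -3.86 ± 0.33), Icam2, a counter-receptor of LFA-1 (-1.35 ± 0.21), and F11r, the junctional molecule JAM-A (0.91 ± 0.14). Thbs1 fell at both steps, from 3164 ± 852 CPM in moMs to 1119 ± 423 in tnsIMs and 218 ± 62.7 in matIMs. Of 34 other focal adhesion genes, 6 were called higher and 10 lower between matIMs and moMs, where the background is 13.4% higher and 11.4% lower for this list and the next 2. They included Csrp1, which encodes an actin-associated LIM protein (2.75 ± 0.14), the small GTPase gene Rhof (2.97 ± 0.20) and Svil, which encodes the actin-binding protein supervillin (-1.70 ± 0.18). Csrp1 rose with Actn1, from 22.8 ± 0.958 CPM in WT moMs to 63.6 ± 5.66 in tnsIMs and 154 ± 15.3 in matIMs. Of 13 genes of integrin activation and inhibition, 0 were higher and 3 lower in matIMs than in moMs, namely the adaptor gene Fyb (-1.42 ± 0.13), Rasgrp2, which encodes the Rap activator CalDAG-GEFI (-1.44 ± 0.25), and Rap1b (-0.67 ± 0.15). The 9 Src and Syk family kinases gave 2 higher, Blk (4.34 ± 0.47) and Fyn (1.63 ± 0.17), and 2 lower, of which the rule named Lyn (-0.76 ± 0.17). Blk is a kinase of B cells, and 5 of 5 B cell markers were called higher in the same comparison. Of the 4 other integrin subunits, 2 were tested, and Itgb2l (2.83 ± 0.78) was called higher while Itgb4 (0.34 ± 0.69) was not called. The Itgb2l call rests on few counts, 1, 3 and 1 in WT moMs and 8, 15 and 18 in WT matIMs.

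The loss of ezrin was set against these differences in each population. Of the 43 tested members, 0 were called between Ezr-KOm and WT in moMs, tnsIMs and matIMs, where 0.171%, 0.164% and 0.152% of all tested genes were called. At an unadjusted p under 0.05, 1 member in moMs, 0 in tnsIMs and 2 in matIMs passed (background 3.74%, 3.24% and 3.84%). DESeq2 also called 0 members in each population. The looser rule of the study asks for a log2 fold change beyond 0.75 in either direction and p under 0.05 without adjustment. It picked 0 members in moMs, 0 in tnsIMs and 1 in matIMs (background 2.51%, 1.83% and 2.4%). The median absolute log2 fold change of the members was 0.13, 0.13 and 0.14 in the 3 populations, beside 0.15, 0.16 and 0.16 over all tested genes. The 95% interval of the log2 fold change lay within ±1 for 32, 34 and 31 of the 43 members. Tests of whether the genotype effect differed between populations called 0 members and 0% of all genes for tnsIMs against moMs (0%), matIMs against tnsIMs (0%) and matIMs against moMs (0%).

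The member that met the study's rule was Itga2b, the alphaIIb subunit of the platelet fibrinogen receptor. It had 0.665, 2.01 and 0.932 CPM in WT matIMs and 2.22, 2.34 and 2.73 in Ezr-KOm matIMs (log2 fold change 1.01 ± 0.43, adjusted p = 1). The ranges did not overlap, and the gene was at most at 6.59 CPM in any library. With the replicate number as a block, 2 members met the rule, Itga2b and Itgb8 (log2 fold change 1.12 and 1.11). The sum of 6 platelet markers found in the table was 51.2 to 89.2 CPM in WT matIMs and 64.3 to 94.5 in Ezr-KOm matIMs, ranges that overlapped. Itga2b no longer met the rule without the first or the third WT matIM library or without the third Ezr-KOm matIM library.

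Itga1 was the member nearest to a genotype difference in 2 populations. The WT and Ezr-KOm ranges did not overlap in moMs or in matIMs, where the log2 fold changes were -0.56 ± 0.23 and -0.64 ± 0.25 (adjusted p = 1 and 1). In tnsIMs the value was -0.29 ± 0.23, and the Ezr-KOm libraries spanned the WT range. Such non-overlap of the genotypes was not particular to Itga1. It also occurred for Itgam, Vasp and Bcar1 in moMs, Itga6 and Actn4 in tnsIMs, and Itga2b, Itgb6 and Fermt2 in matIMs. Its share over all tested genes was not computed. Itgb1, the beta partner of Itga1, had log2 fold changes with 95% intervals of -0.33 to 0.42 in moMs, -0.29 to 0.46 in tnsIMs and -0.27 to 0.47 in matIMs. Ptk2 had intervals of -0.43 to 0.63, -0.76 to 0.24 and -0.37 to 0.64 in the same order. Itgam, the sort marker, had -0.06 to 0.61, -0.02 to 0.65 and -0.34 to 0.33, and Itgb2 -0.25 to 0.22, -0.33 to 0.15 and -0.45 to 0.02. None of the intervals of Itgb1, Ptk2, Itgam and Itgb2 reached a change of 1 in either direction on the log2 scale. Those of Itga1 in moMs and in matIMs extended beyond a fall of 1 on that scale.

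**Figure D5:**
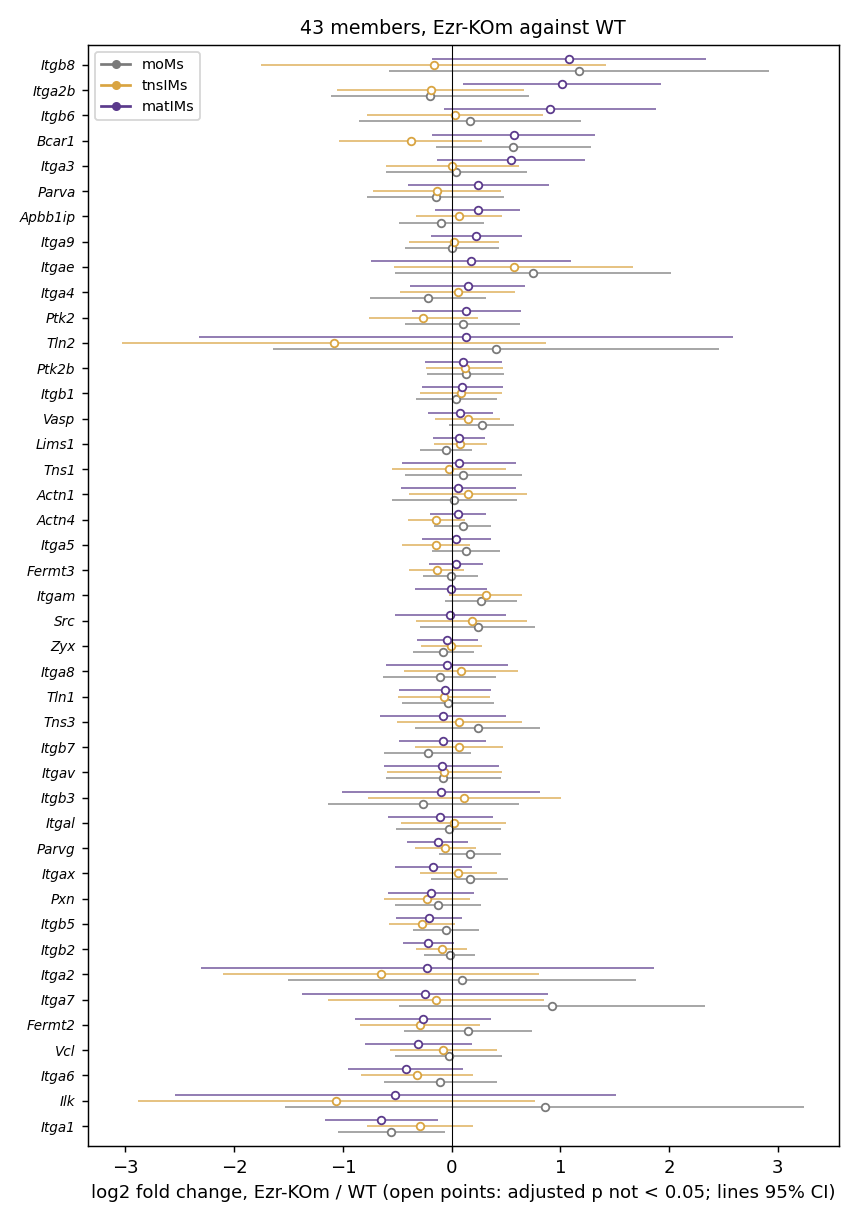
Log2 fold change between Ezr-KOm and WT (x axis) for the 43 tested members (y axis, ordered by the matIM value), in moMs (grey), tnsIMs (yellow) and matIMs (purple), with lines for 95% confidence intervals. All points are open because 0 members were called, and the widest intervals belong to transcripts near 0 CPM such as Ilk, Itga2 and Tln2.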

How the data were processed

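Macrophages were sorted from the lungs of LPS-treated mice, and libraries were made with SMART-Seq v4 and Nextera XT. Per the labels and methods, the authors aligned reads to GRCm39 with STAR 2.7.9a, counted reads per gene of Gencode M29 and deposited raw counts; the strand column used is not given in the sources used here. A read in exons of 2 overlapping genes is dropped or assigned by strand under such counting, which can lower Ilk and Itgam.

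Genes were kept by filterByExpr (minimum count 10), which left 15811, and TMM-scaled counts of all 18 libraries were fitted by 1 edgeR 4.0.16 quasi-likelihood model of the 6 groups (R 4.3.3). Genes were called at a Benjamini-Hochberg adjusted p under 0.05 over all tested genes. Fold changes in the text are fitted values, and intervals are 95%. DESeq2 1.42.0, other scalings and filters, replicate blocks and leaving out each library were alternatives. Exon lengths and overlaps came from Gencode M39, a later release than the authors' annotation, and promoters from RefSeq (GRCm38.p6), which held 32 of the 44 members.

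Libraries of a group are separate samples in the labels. The p-values rest on a spread between libraries that was pooled over the 6 groups and drawn toward that of other genes. They do not measure the spread of the compared groups alone. Totals ranged from 16512783 to 48460995, and counting error is small for most members and large for those under about 1 CPM. Replicate numbers came from the labels. Deviations of same-numbered WT and Ezr-KOm libraries of a population correlated at 0.102 to 0.316, and those of populations of a genotype at 0.0905 to 0.397. Pairs with different numbers lay lower, at -0.238 to 0.0508 and -0.295 to 0.0316. Pairing was accepted where every pair was over 0.1, which held between genotypes and was narrowly missed between populations. The main fits carried no block in either kind of comparison. The main genotype results therefore leave out the pairing accepted there, and all fits with a block are given as alternatives. The labels do not say which libraries came from the same mouse.

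The members and gene lists were chosen with earlier results of these data known. Values per library are given for integrins called between matIMs and moMs in WT, the 6 other members with the smallest p there, members meeting the study's rule and Itga1, Itgb1, Itgam and Ptk2. From each other list at most 3 genes were named. Itga4, Fermt2, Itgb6, Parva, Bcar1, Tln1, Pxn, Zyx, Fermt3, Apbb1ip, Parvg, Actn4, Ptk2b and Ilk were named after their values were seen.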

Additional observations from a re-analysis of the deposited data

How the results depend on the processing

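Of 124 calls of members in the population comparisons, 95 held under all 9 other analyses and all 18 left-out libraries that could test them, 29 were lost in at least 1, and 0 changed sign. The calls most often lost were those with small folds: Parvg (18 analyses) and Itgb2 (12) between matIMs and moMs in WT, and Tln1 between tnsIMs and moMs in WT (15). Scaling by library totals alone moved the median of all genes between matIMs and moMs by 0.11 in WT and 0.13 in Ezr-KOm, and upper-quartile scaling moved that between tnsIMs and moMs in WT by 0.11 (log2). Counts of called members stayed within 1.5 times the main count. The replicate block raised those of tnsIMs against moMs in WT from 18 to 27, and 0 members were called between genotypes with it.

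The study's rule between genotypes in matIMs gave 2 members with DESeq2, 2 with the replicate block and 2 when only the groups compared were fitted, in place of 1, and between 0 and 2 when 1 library was left out (0 without the first WT matIM library, and 2 without the second WT matIM, the Ezr-KOm matIM replicates 1 or 3 or the second Ezr-KOm moM library). In moMs it gave 0 to 1, with 1 reached without WT moM replicate 2 or Ezr-KOm moM replicates 1 or 3. The cause was not tested. Genotype values near 0 changed sign. For Itgam in matIMs the log2 fold change was 0.0085 with upper-quartile scaling, 0.017 with library totals, 0.0018 with a minimum of 10 counts per library, 0.0023 with DESeq2 and 0.0045 with only the groups compared fitted, and it lay between -0.17 and 0.15 without single libraries. Without single libraries, it lay between -0.41 and 0.16 for Itga2b, between -0.057 and 0.13 for Itgb1 and between -0.053 and 0.022 for Itgb2 in moMs. In tnsIMs it lay between -0.50 and 0.33 for Itga2b, between -0.14 and 0.21 for Itgb1 and between -0.47 and 0.0099 for Ptk2. Depth limits transcripts under about 1 CPM, among them Itgad, Ilk, Tln2 and Itga2.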
